A study of Mus musculus with 4 samples.

Results

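Collagen chains are the polypeptides that wind in threes into the triple helix of the collagens, and the genes described here are those whose mouse symbol is Col followed by a number, the letter a and a second number. Of the 14718 genes listed in the deposited table, 39 were collagen chains: 36 of 14125 genes at 7 days post injury (dpi) and 26 of 11472 at 21 dpi. Both time points listed 23 of them, among 10879 genes in common, while 13 were listed at 7 dpi alone and 3 at 21 dpi alone. The RefSeq table of mouse genes holds 44 such symbols, so 5 were listed at neither time point, and a gene that is not listed has no value that could be read as low. Male mice aged 3 to 5 months carried human ApoE3 or ApoE4 in place of the mouse gene. They received a 50 kdyne contusion at T9, and a segment of about 4 mm around the lesion was taken for RNA sequencing at 7 or 21 dpi. RNA from 3 mice gave 1 value per gene in each of the 4 groups, and no uninjured or sham group was sequenced.

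After contusion the interior of the cord loses neurons and glia, macrophages enter, and fibroblasts and pericytes lay down a collagen-rich core that the surrounding astrocytes wall off. Collagen there forms fibrils, basement membranes and networks that carry cells and vessels and can also hold back growing axons. ApoE carries lipid between glia, macrophages and neurons, and the debris of myelin that macrophages clear is rich in that lipid, which is one reason to look at matrix genes in mice that differ in ApoE alone.

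Levels are in FPKM, the fragments of a gene counted per kilobase of its length and scaled to the fragments sequenced. The tissue was recognizable as cord in all 4 groups. Of the oligodendrocyte marker genes, 3 of 6 were listed at 7 dpi and 5 of 6 at 21 dpi, with summed levels at 7 dpi of 126690 FPKM (ApoE3) and 133850 FPKM (ApoE4) and at 21 dpi of 227660 and 320870, most of it Mbp. Astrocyte markers (7 of 8 listed at 7 dpi and 8 of 8 at 21 dpi, Gfap the most abundant) summed to 17410 and 16928 FPKM, then 13823 and 23910. For neurons, with 9 of 9 and 7 of 9 markers listed and Snap25 the most abundant, the sums were 5869 and 4612, then 7999 and 11969. No marker on these lists stood at 0. Against that cellular content the collagens were a small share: at 7 dpi the listed chains summed to 2726 FPKM (ApoE3) and 3262 FPKM (ApoE4), which was 0.163% and 0.195% of all FPKM, and to 875 and 1080.1 at 21 dpi, which was 0.0578% and 0.0527%. Those collagen sums cover 36 chains at 7 dpi and 26 at 21 dpi, when Col4a1 among others was not listed. The 23 chains listed at both time points summed to 2009.7 and 2406 FPKM at 7 dpi and to 850.5 and 1065.5 at 21 dpi. Levels at 7 and 21 dpi may have been normalized separately by the authors, so comparisons of levels across time carry that uncertainty.

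**Figure D1:**
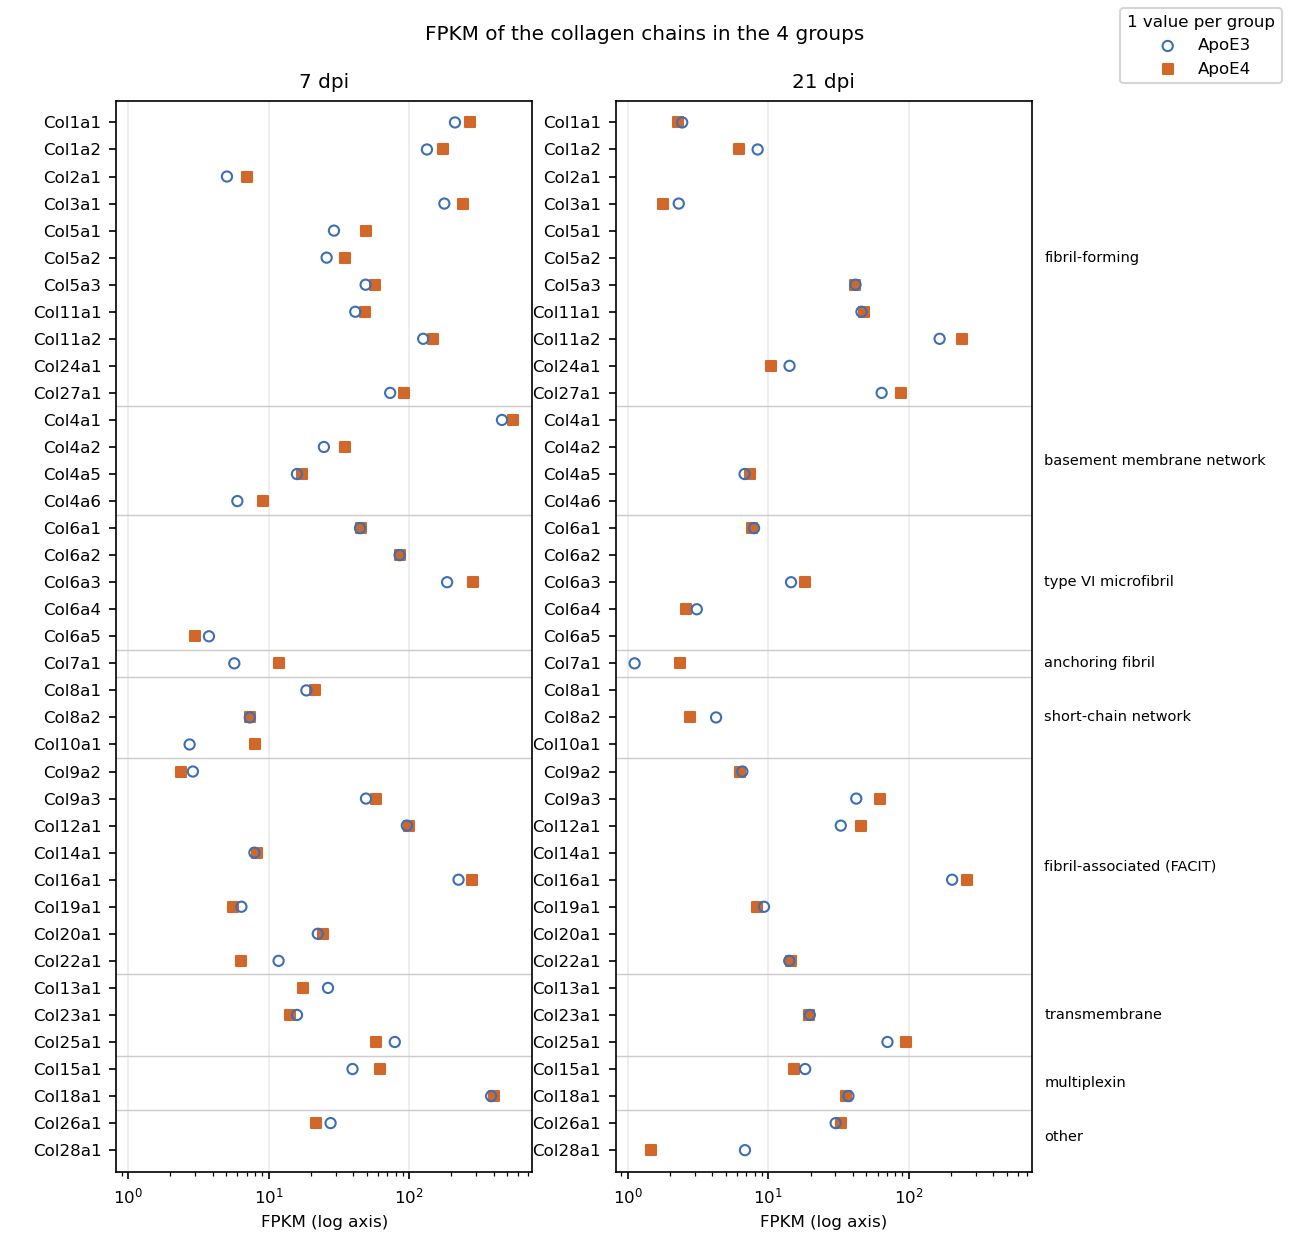
FPKM of each listed collagen chain (log scale), with 1 point per genotype and time point; open circles are ApoE3 and filled squares ApoE4, and the reading of genotype rests on the order of the deposited values. Normalization may differ between 7 and 21 dpi, and the fibrillar chains Col1a1 and Col3a1 are near the top at 7 dpi and near the bottom at 21 dpi.

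Collagen genes are built in a way that mirrors the protein. The helix repeats glycine and a pair of other residues, which takes 9 bases, and an exon of 54 bases encodes 6 repeats exactly. In the fibril-forming chains 305 of 649 coding exons (47.0%) were 54 bases long, against 95 of 394 (24.1%) in the fibril-associated chains and 8 of 197 (4.06%) in the basement membrane chains. Exons whose length was a multiple of 9 made up 82.4% of the coding exons of fibril-forming chains, 45.7% of those of basement membrane chains and 63.0% of those of all 39 chains. The fibril-forming genes thus keep the repeat in their exon lengths more strictly than the network-forming ones, whose helices are interrupted.

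The GC box was found at collagen start sites in a larger share of windows than among all genes. A window from 250 bases before to 50 bases after the start site was available for 33 start sites of 31 of the genes, from RefSeq GRCm38.p6. This box, GGGCGG, occurred in 22 of the 33 windows (66.7%), against 35.7% of 32851 windows of all genes, whereas CCAAT occurred in 11 (33.3%, against 37.4%) and TATAAA in 4 (12.1%, against 13.6%). In the sequences below, capitals mark these motifs on either strand. On the reverse strand the first reads CCGCCC, the CCAAT box reads ATTGG and the TATA box reads TTTATA. A match is a description of the sequence and no evidence that a factor binds there. Col4a1 and Col4a2 lie head to head with start sites 21 bases apart on opposite strands, and 78 bases are shared by both windows (chr8:11312777-11312854, plus strand shown):
Col4a1 and Col4a2: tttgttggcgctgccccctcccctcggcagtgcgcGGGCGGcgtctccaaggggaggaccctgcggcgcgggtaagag
The libraries were made with a kit that does not mark the strand, so reads from the overlapping start region of this pair cannot be assigned to either gene by strand. The Col1a2 window (chr6:4505368-4505667, plus strand) holds both CCAAT and GC boxes:
Col1a2: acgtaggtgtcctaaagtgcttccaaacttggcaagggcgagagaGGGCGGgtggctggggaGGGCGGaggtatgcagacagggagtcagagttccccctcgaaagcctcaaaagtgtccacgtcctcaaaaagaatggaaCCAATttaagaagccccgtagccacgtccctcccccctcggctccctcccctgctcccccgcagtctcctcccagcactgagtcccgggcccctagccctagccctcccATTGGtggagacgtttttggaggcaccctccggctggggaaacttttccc
The Col3a1 window (chr1:45311288-45311587, plus strand) has 1 TATAAA match, well upstream of the start site, and neither of the other motifs. Its GC content was 37.7% where that of Col1a2 was 61.0%:
Col3a1: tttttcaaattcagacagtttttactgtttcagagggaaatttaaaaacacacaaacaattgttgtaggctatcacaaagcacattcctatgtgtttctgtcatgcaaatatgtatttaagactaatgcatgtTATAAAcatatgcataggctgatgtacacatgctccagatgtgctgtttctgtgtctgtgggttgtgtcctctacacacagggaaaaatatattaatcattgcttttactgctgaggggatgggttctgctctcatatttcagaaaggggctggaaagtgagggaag
In the Col7a1 window (chr9:108953336-108953635, plus strand), 58.7% GC, there was 1 CCAAT and 1 GGGCGG:
Col7a1: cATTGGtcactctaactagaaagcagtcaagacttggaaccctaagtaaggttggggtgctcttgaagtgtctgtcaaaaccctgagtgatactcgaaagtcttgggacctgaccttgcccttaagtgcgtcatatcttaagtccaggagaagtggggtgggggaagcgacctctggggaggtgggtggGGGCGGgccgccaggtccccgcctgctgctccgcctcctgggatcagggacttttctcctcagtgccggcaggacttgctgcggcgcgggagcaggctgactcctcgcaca

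Collagen genes leaned toward higher values in ApoE4 at 7 dpi, more often than genes at large. Ratios are log2((FPKM in ApoE4 + 1)/(FPKM in ApoE3 + 1)), a form that understates the difference of genes with low FPKM, and 1.3-fold on the same scale (a log2 ratio of 0.38) was taken as the smallest difference to count. Genotypes were read from the deposited entries, which call the comparison ApoE3 versus ApoE4 and whose fold is the first value over the second, so that the first value was taken as ApoE3; the numbering of the value columns would give the opposite, and under it every genotype direction stated here reverses. On the reading used, 10 of 36 chains (27.8%) had at least a 1.3-fold higher value in ApoE4, where 4.76% of all listed genes did, and 3 of 36 (8.33%) had a higher value in ApoE3, where 3.78% of all genes did. The median log2 ratio of the chains was 0.22, with 27 above 0 and 9 below, and that of all genes was -0.0020. The count includes 1 chain close to its edge on each side: Col2a1 at 0.40 is the nearest inside and Col1a2 at 0.37 the nearest outside, while toward ApoE3 these are Col25a1 at -0.44 and Col26a1 at -0.33. In bulk tissue more cells that make a collagen and more RNA per cell cannot be told apart, and with 1 value per group used here the spread between mice was not available, so no difference was tested.

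**Figure D2:**
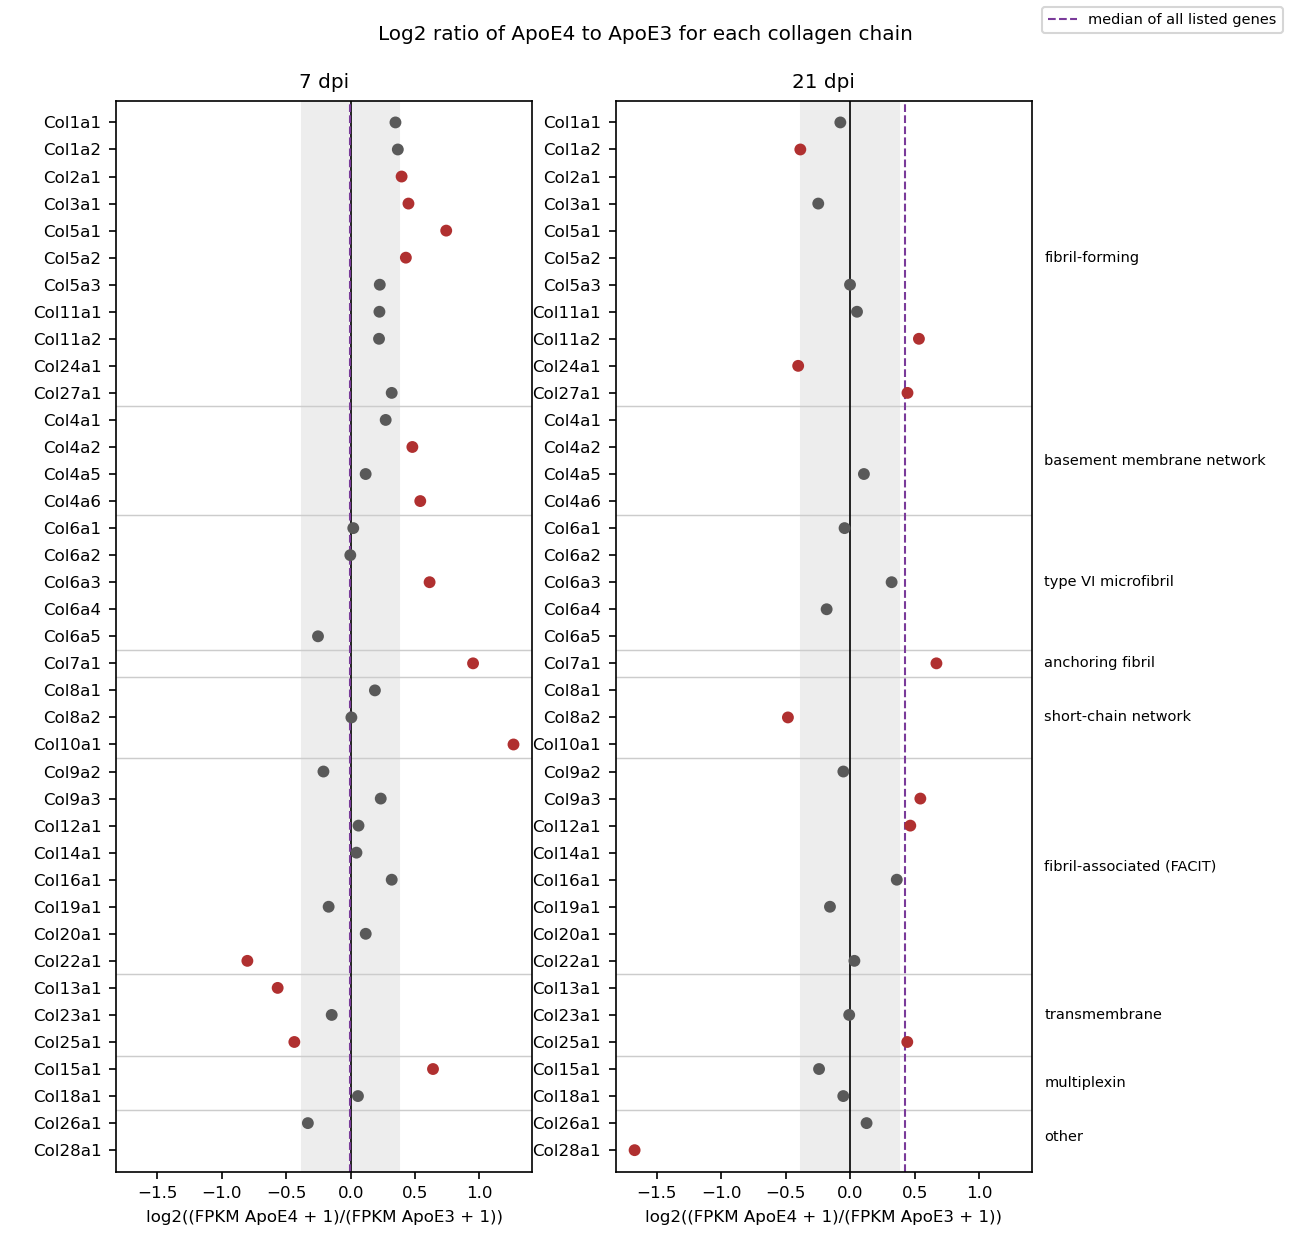
log2 ratio of FPKM + 1 in ApoE4 over ApoE3 for each collagen chain (1 point per chain) at 7 and 21 dpi; the grey band is less than 1.3-fold, red points lie beyond it and the dashed line is the median of all listed genes. Points lean to the right at 7 dpi and mostly lie left of the dashed line at 21 dpi, and the direction depends on which deposited value is ApoE3.

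The fibril-forming chains, which build the tensile fibers of scar, shared this lean: all 10 listed at 7 dpi had the higher value in ApoE4, with a median log2 ratio of 0.36, and 4 were past 1.3-fold. Col3a1, the chain of the thin fibrils laid down early in wounds, was at 178 FPKM (ApoE3) and 243 FPKM (ApoE4) at 7 dpi and 2.31 and 1.79 at 21 dpi, a ratio of 0.45 at 7 dpi. Type V collagen sits inside type I fibrils and sets their number and width, and both of its main chains were past the fold: Col5a1 had 29.2 and 49.5 FPKM (0.74) and Col5a2 25.9 and 35.2 (0.43). Col2a1, the cartilage fibril chain, was listed with 5.05 and 6.96 FPKM (0.40). The main chains of type I collagen, the bulk protein of mature scar, lay just short of the fold, with Col1a1 at 212 and 270.0 FPKM at 7 dpi and 2.44 and 2.27 at 21 dpi (0.35 at 7 dpi) and Col1a2 at 134 and 173, then 8.41 and 6.19 (0.37). The proportion of these partners was close in both genotypes: 1.58 FPKM of Col1a1 per FPKM of Col1a2 in ApoE3 and 1.56 in ApoE4 at 7 dpi. Type V differed more, with 1.13 FPKM of Col5a1 per FPKM of Col5a2 in ApoE3 and 1.41 in ApoE4. Col11a2, a minor fibril chain that was the highest of its class at 21 dpi and below Col1a1, Col3a1 and Col1a2 at 7 dpi, had 126 and 147 FPKM at 7 dpi and 166 and 240.5 at 21 dpi, a ratio of 0.22 at 7 dpi. Its partner Col11a1 followed with 41.4 and 48.5 FPKM (0.22). The remaining fibril formers were Col27a1 at 73.3 and 91.6 (0.32) and Col5a3, the third type V chain, at 49.0 and 57.5 (0.23). As a class the fibril-forming chains summed at 7 dpi to 873 FPKM (ApoE3) and 1122 FPKM (ApoE4).

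Basement membrane chains, which form the sheet under endothelium and around the new glial border, had higher values in ApoE4 for all 4 listed at 7 dpi, 2 of them past 1.3-fold, with a median of 0.38. Col4a1 was the most abundant collagen of the tissue at that time, at 458 and 553 FPKM (0.27), and its obligate partner Col4a2 had 24.7 and 34.9 (0.48). The type IV molecule contains more than 1 Col4a1 chain for each Col4a2 chain, but the measured excess of Col4a1 was 18.5-fold in ApoE3 and 15.9-fold in ApoE4, far from that proportion. Whether the shared start region, the unmarked strand or the annotation plays a part in this was not tested. Of the pair on the X chromosome, Col4a6 had 5.99 and 9.17 FPKM (0.54) and Col4a5 15.9 and 17.3 at 7 dpi and 6.79 and 7.38 at 21 dpi (0.12 at 7 dpi). Neither Col4a1 nor Col4a2 was listed at 21 dpi, so basement membrane chains can be followed over time through Col4a5 alone.

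Type VI microfibrils link cells to the fibrils around them, and within this class only the large chain stood apart. Col6a3, which joins Col6a1 and Col6a2 to complete the molecule, had 186 and 285 FPKM at 7 dpi and 14.5 and 18.4 at 21 dpi, a ratio of 0.61 at 7 dpi. Its partners had nearly the same value in both genotypes, Col6a1 at 44.7 and 45.4 FPKM (0.02) and Col6a2 at 85.6 and 85.4 (-0.0026). Col6a3 therefore stood at 4.17 times Col6a1 in ApoE3 and 6.29 times in ApoE4. Col6a5, an alternative to Col6a3, was low at 3.76 and 2.99 FPKM (-0.25). Of the partners that assemble, the large chain alone thus differed past the fold, and whether more type VI protein was made was not measured.

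Among the smaller classes the largest ratios belonged to genes with low levels. Col10a1, the network chain of cartilage that turns to bone, had 2.74 and 7.98 FPKM and the highest ratio of any chain, 1.26. Col7a1, which anchors epithelial basement membranes and is made by fibroblasts as well, had 5.70 and 11.9 FPKM at 7 dpi and 1.12 and 2.37 at 21 dpi, a ratio of 0.95 at 7 dpi. Before centring (below) it was the only chain past 1.3-fold toward ApoE4 at both time points. Col8a1 and Col8a2, short chains of vessel walls, had 18.6 and 21.3 FPKM (0.19) and 7.35 and 7.38 (0.01). Of the multiplexins, Col15a1, found where vessels and muscle meet their basement membrane, had 39.5 and 62.1 FPKM at 7 dpi and 18.3 and 15.3 at 21 dpi (0.64 at 7 dpi), whereas the abundant Col18a1, source of endostatin, was even at 383 and 399 (0.06).

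Fibril-associated chains, which decorate fibrils without forming them, had a median of 0.05, with 5 of 8 above 0 and none past 1.3-fold toward ApoE4. Col16a1, the most abundant listed chain at 21 dpi, had 225 and 280.4 FPKM at 7 dpi and 204 and 262 at 21 dpi (0.32 at 7 dpi). Col12a1, which bridges fibrils under load and which supports axon growth in the injured fish cord, was nearly even at 96.3 and 100.5 FPKM (0.06). Col14a1, a relative found in denser fibrils, had 7.92 and 8.20 (0.05). Col9a3 had 49.3 and 58.1 (0.23) and Col9a2, its partner on cartilage fibrils, 2.89 and 2.36 (-0.21). Both Col19a1, a synapse-forming chain of interneurons, at 6.40 and 5.57 FPKM (-0.17), and Col20a1 at 22.4 and 24.4 (0.12) were short of the fold. Col22a1, a chain of tissue junctions such as that of muscle and tendon, had the lowest ratio of any chain, -0.80, from 11.8 and 6.33 FPKM.

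Transmembrane chains ran the other way: all 3 had higher values in ApoE3 at 7 dpi, with a median of -0.44. Col13a1, needed at the neuromuscular junction, had 26.5 and 17.5 FPKM (-0.57). Neurons are the main source of Col25a1, whose shed ectodomain is found in amyloid plaques, and it had 79.0 and 58.1 FPKM at 7 dpi and 70.6 and 96.3 at 21 dpi (-0.44 at 7 dpi). Col23a1 had 15.9 and 14.3 FPKM (-0.15). Neuron markers lay on the same side at 7 dpi, with a median ratio of -0.25, 2 of 9 past 1.3-fold toward ApoE3 and none toward ApoE4. Skeletal muscle markers, 8 listed at low levels, had a median of -0.31, with 3 past the fold toward ApoE3 and 1 toward ApoE4. Of all genes, 3.78% were past it toward ApoE3 and 4.76% toward ApoE4. The part of either list in the result was not tested. Col26a1, an atypical chain outside these classes, had 27.6 and 21.7 FPKM at 7 dpi and 30.2 and 33.1 at 21 dpi (-0.33 at 7 dpi). Past the fold, the chains on the ApoE3 side were thus a junction chain and a pair of transmembrane chains, while those on the ApoE4 side included scar fibrils, parts of the sheet and Col6a3.

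Enzymes that modify and fold the chains leaned in the same direction. Of 18 genes for hydroxylation and folding, 16 were listed at 7 dpi, with a median of 0.20; 2 were past 1.3-fold toward ApoE4 (4.76% of all genes were) and none toward ApoE3. Plod2, whose hydroxylysines give the stable cross-links of fibrosis, had 20.4 and 28.8 FPKM at 7 dpi and 7.84 and 13.8 at 21 dpi (0.48 at 7 dpi), P4hb, a subunit of prolyl 4-hydroxylase, 212 and 281 (0.41), and P3h1, a prolyl 3-hydroxylase, 30.0 and 38.9 (0.36). Of the genes for propeptide removal and cross-linking, 10 of 13 were listed, 3 past the fold toward ApoE4 and 1 toward ApoE3, with a median of 0.22. Lox, which makes the cross-links, had 14.8 and 22.4 FPKM at 7 dpi and 2.73 and 3.14 at 21 dpi, and Loxl2 34.4 and 48.1, then 11.4 and 15.9, for ratios of 0.56 and 0.47 at 7 dpi. Tll1, a procollagen C-proteinase, had 6.18 and 3.38 (-0.71). Cross-linking and lysyl hydroxylation, which harden the matrix, thus lay on the same side as the fibril chains.

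Proteins that bind collagen in the matrix included genes past the fold on the ApoE4 side, where 4.76% of all genes lay. Among fibril-binding and matricellular genes, 7 of 9 were listed at 7 dpi, 3 past the fold toward ApoE4 and none toward ApoE3, with a median of 0.36. Thbs1, which activates latent TGF-beta, had 15.7 and 32.9 FPKM (1.02), Tnc, the tenascin of wound matrix, 55.2 and 96.6 (0.80), and Thbs2, needed for even fibrils, 33.1 and 43.5 (0.38). For collagen receptors 8 of 11 were listed and none was past the fold on either side (median 0.06, 6 above 0), with Itgb1 at 59.7 and 71.1 FPKM (0.25), Itga10 at 2.04 and 2.64 (0.26) and the uptake receptor Mrc2 at 16.6 and 18.8 (0.17). Laminins and other basement membrane partners (11 of 14 listed) had none past the fold either, with 9 above 0 and a median of 0.05; Lamc1 had 22.5 and 28.9 FPKM (0.35), Lama4 4.68 and 6.21 (0.34) and Lama5 21.6 and 26.4 (0.28). Degradation genes (13 of 14 listed, median 0.13) had 2 past the fold toward ApoE4 and 1 toward ApoE3: the gelatinase Mmp2 had 39.5 and 56.6 FPKM (0.51), the neutrophil collagenase Mmp8 2.01 and 3.31 (0.52) and Mmp13, the main interstitial collagenase of the mouse, 6.01 and 3.84 (-0.53).

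Cell marker lists point to which cells could carry these values. Fibroblast markers were all listed at 7 dpi (10 of 10), summing to 872 FPKM in ApoE3 and 954 in ApoE4, with Thy1, also a neuronal gene, the most abundant; without Thy1 the sums were 416 and 540. Of all genes at 7 dpi, 4.76% were past the fold toward ApoE4 and 3.78% toward ApoE3. The fibroblast list had a median ratio of 0.31, with 3 markers past the fold toward ApoE4 and none toward ApoE3. These were Postn at 119 and 200.0 FPKM (0.74), Mfap5 at 9.06 and 14.7 (0.65) and Lum at 8.94 and 13.0 (0.50). The fibril chains and this list thus leaned the same way, and its part in the result was not tested. Macrophage markers (8 of 8 listed) summed to 7156 and 9421 FPKM, most of it Lyz2, with a median of 0.39 and 4 past the fold toward ApoE4. Pericyte and smooth muscle markers (9 of 9, Rgs5 the most abundant) summed to 294 and 317, and endothelial markers (10 of 10, Slco1a4) to 446 and 422, with medians of 0.0086 and 0.04; past the fold were 2 pericyte and smooth muscle markers toward ApoE4, Acta2 (0.41) and Tagln (0.39), and no endothelial marker. Meningeal markers (7 of 8) summed to 1208 and 1026, nearly all Igf2, with a median of 0.09. Low sums were found for Schwann cell markers (4 of 9 listed, 77.0 and 96.5, Egr2 the most abundant, Gldn below 1 in both genotypes), skeletal muscle (8 of 13, 69.1 and 46.3, Tnnt3) and cartilage and bone (4 of 12, 35.2 and 33.4, Ucma), while none of the 7 sensory ganglion markers was listed. Their medians at 7 dpi were 0.14, -0.31 and -0.04, and the part of any list in the collagen values was not tested.

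**Figure D3:**
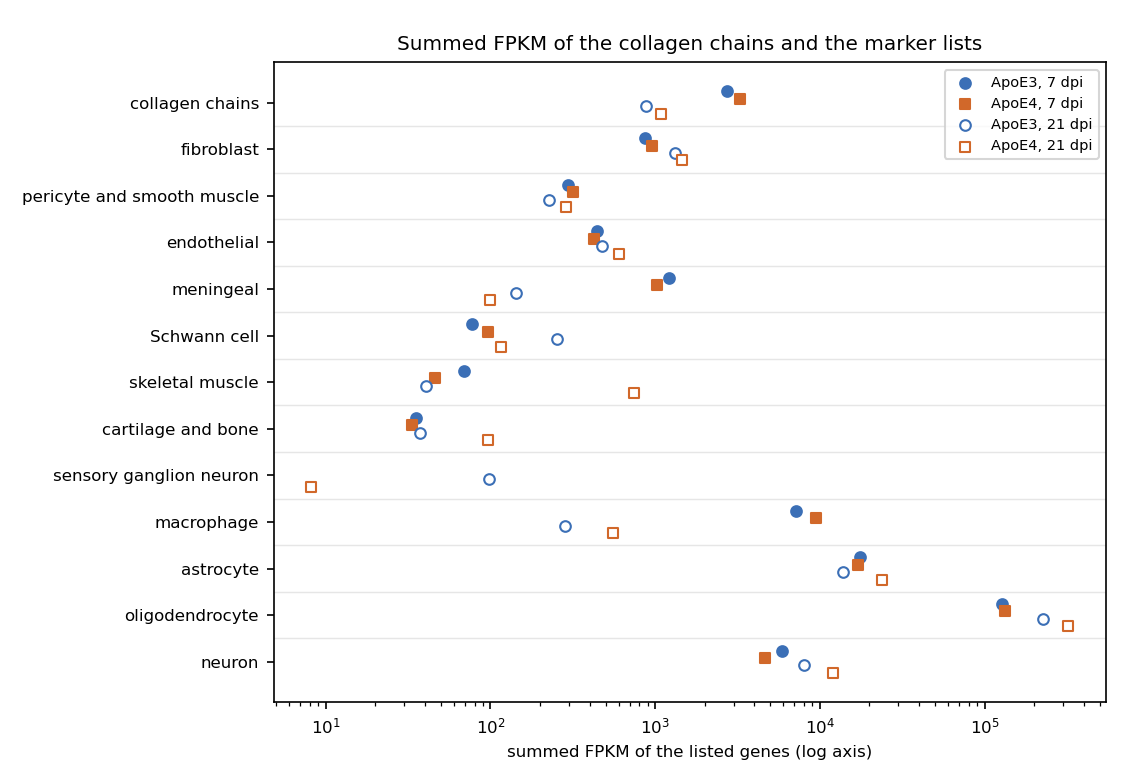
Summed FPKM (log scale) of each cell marker list in each group, filled for 7 dpi and open for 21 dpi. The number of listed genes and possibly the normalization differ between time points; sensory ganglion and muscle sums differ most between genotypes at 21 dpi, and their direction rests on the order of the deposited values.

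At 21 dpi the genotype comparison has a general offset, and the reading of the collagens depends on whether it is taken off. Where the offset comes from was not tested. The median FPKM of all listed genes was 26.9 in ApoE3 and 36.8 in ApoE4, where at 7 dpi it was 33.0 in both, and 93.8% of genes had the higher value in ApoE4, with a median log2 ratio of 0.42. Uncentred, 6 of 26 chains (23.1%) were past 1.3-fold toward ApoE4, where 58.9% of all genes were, and 4 of 26 (15.4%) toward ApoE3, where 2.01% were. After subtracting the median of all genes, 0 chains were past the fold toward ApoE4 and 15 of 26 (57.7%) toward ApoE3, against 8.06% and 7.46% of all genes. The median of the chains was -0.0047 before centring and -0.43 after, with 6 chains above the median of all genes and 20 below. Relative to the rest of the transcriptome, collagen genes thus had lower values in ApoE4 at 21 dpi, the reverse of 7 dpi, although most of the single chains differed little in FPKM itself.

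The chains past the fold toward ApoE4 before centring were Col7a1 (0.67, 0.25 after centring), Col9a3 (42.3 and 62.2 FPKM, 0.54), Col11a2 (0.53, 0.11 after), Col12a1 (32.8 and 45.8, 0.47), Col27a1 (64.1 and 87.6, 0.44, 0.02 after) and Col25a1 (0.44, 0.02 after). Most of these ratios are close to the offset itself and near what a typical gene had, and every other chain was below 0 after centring. Toward ApoE3 were Col28a1 at 6.83 and 1.45 FPKM (-1.67, -2.10 after centring), Col8a2 at 4.26 and 2.76 (-0.48), Col24a1 at 14.2 and 10.5 (-0.40, -0.83 after) and Col1a2 at 8.41 and 6.19 (-0.39, -0.81 after). Col28a1 is made chiefly by the Schwann cells of peripheral nerve, and markers of peripheral tissue differed between these samples. Schwann cell markers (8 of 9 listed) summed to 253 FPKM in ApoE3, where Ncmap was the most abundant, and 115 in ApoE4, where Egr2 was. Ncmap had 122 and 35.7 FPKM and Egr2 73.0 and 46.1. Before centring, 6 of the listed markers were past the fold toward ApoE3, where 2.01% of all genes were. None was past it toward ApoE4, where 58.9% of all genes were. Cldn19, Gldn, Pmp2 and Scn7a were below 1 in ApoE4. Sensory ganglion markers, all 7 listed, summed to 97.9 and 8.18, with Avil at 39.1 and 1.20 and with Mrgprd and Trpv1 at 0 in ApoE4. Roots or ganglia in the ApoE3 segment could therefore carry the Col28a1 value, and their part in the result was not tested.

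Other tissue outside the cord lay on the ApoE4 side at 21 dpi. Skeletal muscle markers (10 of 13 listed) summed to 40.4 FPKM in ApoE3 and 744 in ApoE4, with Tnnt3 at 22.5 and 515.5 and Myh4 at 0 in ApoE3. Both before and after centring, 9 were past the fold toward ApoE4, where 58.9% and 8.06% of all genes were. Cartilage and bone markers (5 of 12) summed to 37.5 and 96.0, with Ucma at 22.1 and 64.1 and Bglap below 1 in ApoE3. Col9a3, Col11a2 and Col27a1 are chains of cartilage as well as of cord glia and neurons, and they had higher values before centring. After it they were at 0.12, 0.11 and 0.02, near a typical gene. The partner chains Col9a2 and Col11a1 were nearly even in FPKM, and at -0.48 and -0.37 after centring. The part of either list in the result was not tested. Fibroblast markers (9 of 10) summed to 1320.0 and 1461, but without Thy1 to 303 and 274, with Dcn at 61.9 and 9.37, Mfap5 at 19.2 and 1.97 and Lum at 1.44 and 0.67. After centring, the list had a median of -0.26, with those 3 genes past the fold toward ApoE3, where 7.46% of all genes were. None was past it toward ApoE4, where 8.06% were, with Postn at 0.13 and Pdgfra at 0.05. Meningeal markers (5 of 8, Igf2 the most abundant) summed to 143 and 98.9 FPKM, with a median of -0.53, or -0.95 after centring. The sums were 284 and 555 for macrophages (5 of 8, Lyz2), 228 and 289 for pericytes and smooth muscle (8 of 9, Rgs5) and 478 and 606 for endothelium (9 of 10, Slco1a4). The centred median of the fibroblast list thus lay on the same side as that of the collagens at this time, and its part in the result was not tested.

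Among the 23 chains listed at both time points, Col25a1 alone was past 1.3-fold in opposite directions before centring, toward ApoE3 at 7 dpi and toward ApoE4 at 21 dpi. Its 21 dpi ratio was 0.02 after centring, and on centred values Col3a1 (0.45 and -0.67) and Col15a1 (0.64 and -0.67) were instead the chains past the fold in opposite directions, toward ApoE4 at 7 dpi and toward ApoE3 at 21 dpi. Type I and III chains, on the ApoE4 side at 7 dpi, had ratios of -0.08 (Col1a1), -0.39 (Col1a2) and -0.25 (Col3a1) at 21 dpi, which after centring were -0.50, -0.81 and -0.67. Col6a3 had the higher FPKM in ApoE4 but not after centring (0.32 and -0.10), and it stood at 1.83 times Col6a1 in ApoE3 and 2.40 times in ApoE4. Col15a1 was lower in ApoE4 at -0.24, Col5a3 was even at 41.8 and 41.7 FPKM (-0.0016, -0.42 after centring) and Col16a1 was at 0.36, or -0.06 after centring. A further group was even in FPKM and therefore below the typical gene: Col11a1 had 46.1 and 47.8 FPKM (0.05), Col22a1 14.1 and 14.5 (0.03), Col23a1 19.8 and 19.6 (-0.0079) and Col6a1 7.93 and 7.67 (-0.04). Col6a4, listed at 21 dpi alone, had 3.10 and 2.61 FPKM (-0.18). Several pathway lists sat at the offset, and 58.9% of all genes were past the fold toward ApoE4 before centring. Hydroxylation and folding (12 listed, 8 past the fold toward ApoE4, none toward ApoE3) had a median of 0.49, or 0.07 after centring. Propeptide removal and cross-linking (8 listed, 5 past toward ApoE4) had 0.43, or 0.0033, and degradation (10 listed, 6 past toward ApoE4) had 0.45, or 0.02. After centring, each of these lists had no gene past the fold toward ApoE4 and 1 toward ApoE3. Basement membrane partners (12 listed) instead had a median of -0.0062, or -0.43 after centring, as the collagens did. The chains thus parted from the enzymes that process them at 21 dpi, where at 7 dpi they had leaned together.

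The strongest contrast in the data was between time points, within each genotype: type I and III collagens, type VI chains and Col18a1 had far lower values at 21 dpi, while Col11a1 and Col27a1 were near even. In ApoE3, 11 of 23 chains had at least a 1.3-fold lower value at 21 dpi (23.6% of all genes did) and 3 a higher one (31.3% of all genes), with a median of -0.22 for the chains and 0.09 for all genes. In ApoE4, 12 of 23 were lower (10.9% of all genes) and 7 higher (59.0% of all genes), with medians of -0.45 and 0.53. After centring, 11 chains were lower and 2 higher in ApoE3 (27.7% and 26.6% of all genes), and 16 lower and 2 higher in ApoE4 (28.6% and 26.1% of all genes). Normalization may have differed between the time points, and centring takes off the median of all genes. The same 11 chains were lower in both genotypes: Col1a1, Col1a2, Col3a1, Col4a5, Col6a1, Col6a3, Col7a1, Col8a2, Col12a1, Col15a1 and Col18a1.

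**Figure D4:**
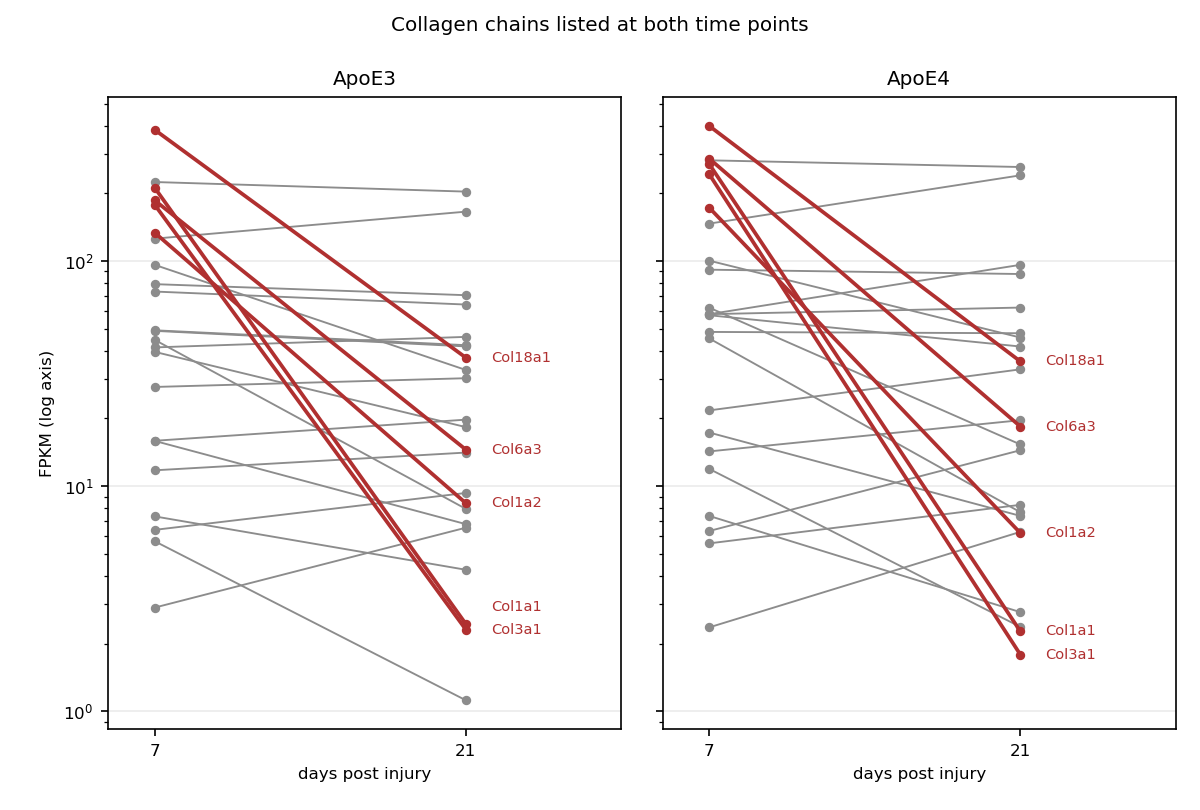
FPKM (log scale) at 7 and 21 dpi of the 23 collagen chains listed at both, 1 line per chain, in ApoE3 and ApoE4; red lines are the 5 chains at least 8-fold lower at 21 dpi in both genotypes. Normalization may differ between the time points, and which panel is ApoE3 rests on the order of the deposited values.

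In 5 chains the value was at least 8-fold lower in both genotypes. On FPKM + 1, Col1a1 was 61.8-fold lower at 21 dpi in ApoE3 and 83.0-fold lower in ApoE4, and Col3a1 54.1-fold and 87.7-fold. On FPKM itself these were 86.7-fold and 119-fold, and 77.1-fold and 136-fold. Counted from the lowest log2 ratio of 21 over 7 dpi among 10879 genes, Col1a1 ranked 2 in both genotypes and Col3a1 ranked 3 in ApoE3 and 1 in ApoE4. Messages of these scar fibrils were thus among those with the lowest relative values at 21 dpi of the genes listed at both time points, and a part of normalization in this was not tested. Again on FPKM + 1, Col1a2 was 14.3-fold and 24.2-fold lower (ranks 13 and 5), Col6a3 12.1-fold and 14.8-fold (14 and 10) and Col18a1, from 383 and 399 FPKM to 37.2 and 35.8, 10.05-fold and 10.8-fold (21 and 17). Type I partners did not move in step, since Col1a1 stood at 0.291 FPKM per FPKM of Col1a2 in ApoE3 and 0.366 in ApoE4 at 21 dpi, far below the proportion at 7 dpi. Collagen protein laid down earlier may persist at lower levels of its message, and protein was not measured.

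Smaller differences over time were found in the 6 other chains that were lower in both genotypes. Log2 ratios of 21 over 7 dpi were -1.07 in ApoE3 and -1.95 in ApoE4 for Col15a1, -1.12 and -1.13 for Col4a5, -1.52 and -1.12 for Col12a1, -2.36 and -2.42 for Col6a1, -1.66 and -1.94 for Col7a1 and -0.67 and -1.16 for Col8a2. A further set of chains was even or higher: Col11a2 (0.40 and 0.71), Col9a2 at 6.54 and 6.27 FPKM (0.96 and 1.11) and Col19a1 at 9.34 and 8.27 (0.48 and 0.50) had higher values at 21 dpi in both genotypes, although after centring Col19a1 was at -0.03 in ApoE4 and Col11a2 was short of the fold in both (0.31 and 0.18). Col16a1 (-0.14 and -0.10), Col27a1 (-0.19 and -0.06) and Col11a1 (0.15 and -0.02) had similar FPKM at both time points, which in ApoE4 was below the typical gene, and Col16a1 was the most abundant chain at 21 dpi. Of the 23 chains 20 had the same sign over time in both genotypes, and none was past the fold in opposite directions. The same shares over all genes were not computed, so this cannot be read as particular to the collagens. Col16a1, Col11a2 and the transmembrane Col25a1 thus headed the listed collagens at 21 dpi, when Col4a1 and Col4a2 had no listed value.

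Macrophage markers and several collagen-processing genes had lower values at 21 dpi, as Col1a1, Col1a2 and Col3a1 did. Macrophage markers had median log2 ratios of 21 over 7 dpi of -4.03 in ApoE3 and -3.83 in ApoE4, with Lyz2 from 4522 and 6076 FPKM at 7 dpi to 212 and 425.5 at 21 dpi. Propeptide removal and cross-linking genes had medians of -1.15 and -0.99, and the fibril-binding and matricellular list, 4 genes at both time points, -2.35 and -2.69, with Tnc from 55.2 and 96.6 FPKM to 12.0 and 17.4 and Thbs1 from 15.7 and 32.9 to 1.79 and 2.77. Hydroxylation and folding, which serves many proteins, had medians of -0.38 and -0.05, or -0.47 and -0.58 after centring. Fibroblast markers split over time, with medians of -0.83 and -2.25 over the 9 listed at both time points. Toward 7 dpi, 5 were past the fold in ApoE3 and 7 in ApoE4, where 23.6% and 10.9% of all genes were. Toward 21 dpi, 4 (Dcn, Mfap5, Cygb and Thy1) were past it in ApoE3 and 2 (Cygb and Thy1) in ApoE4. The shares of all genes past it toward 21 dpi were 31.3% and 59.0%. Postn, at 17.4 and 26.1 FPKM at 21 dpi, and Pdgfra, at 42.0 and 58.8 where it had been at 85.5 and 95.4, were among the lower ones. Fibroblasts and oligodendrocyte progenitors both express Pdgfra, so a loss of fibroblasts and a lower output of collagen message per fibroblast could not be told apart, and neither was tested. Messages of type I, III and VI collagen were thus higher in the 7 dpi lesion in both genotypes, and at that time the fibril, Col4a2, Col6a3 and cross-linking genes had higher values in the group read as ApoE4.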

How the data were processed

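Total RNA of the lesion segment was sequenced by the authors, with RNA of 3 mice combined in 1 deposited value per group (ApoE3 and ApoE4, 7 and 21 dpi). The deposited table gives FPKM computed by the authors; the submitters' processing notes name STAR 2.5.4b, Bowtie2 2.1.10, SAMtools 0.1.7 and Cuffdiff 1.3.0. The genome build and annotation are not given in the sources used here, and the authors reduced all samples to an equal number of reads before alignment; FPKM holds no counts per gene, so no counting error was computed. The table's columns of fold changes, test statistics, p and q values, computed by the authors, were not used. Of 25601 table entries, 25503 matched mouse gene symbols, and 4 symbols on 2 entries, none a collagen, were averaged. Ratios used FPKM + 1 and a minimum of 1.3-fold; centring subtracted the median log2 ratio of all genes whose mean FPKM reached 1. Only 1 value per group was used here, without values of single mice, so no test was made. Members, structural classes, 6 pathway and 12 marker lists were chosen with earlier results of these data known, and 1 marker gene is not reported here. Named with values were chains past 1.3-fold at 7 dpi or 2-fold at 21 dpi, those nearest that fold, the 5 with the highest mean FPKM, the highest of each class and, per pathway list, the 3 genes with the largest log2 ratios at 7 dpi in either direction; all other named genes were chosen after their values were seen. Alternatives were pseudocounts of 0.1 and 0.01, folds of 1.5 and 2, the FPKM filter, centring and, chosen after seeing the data, chains listed at both time points. Coding exons came from GENCODE vM21 and promoter windows from RefSeq GRCm38.p6. Calculations used Python 3.11.15, numpy 2.4.6, pandas 2.3.3 and matplotlib 3.10.9, and were tested on simulated data.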

Additional observations from a re-analysis of the deposited data

Results flagged for a closer look

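The log2 ratio of ApoE4 over ApoE3 for Col25a1 was -0.44 at 7 dpi and 0.44 at 21 dpi, past 1.3-fold in opposite directions before centring; after centring the 21 dpi ratio was 0.02, that of a typical gene. On centred values Col3a1 (0.45 and -0.67) and Col15a1 (0.64 and -0.67) were past 1.3-fold in opposite directions instead. These chains were singled out because the time points differ in direction. With 1 value per group, whether the contrasts of 7 with 21 dpi differ was not tested, and exchanging the genotypes would reverse every sign and leave the contrasts.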

How the results depend on the processing

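For the counts and medians of the collagen chains, 50 values under alternative settings kept their direction and stayed within 1.5-fold of the value reported, 19 moved further and 1 reversed. Ratios of single chains were varied only for those past 1.3-fold at 7 dpi. They kept their direction and stayed past 1.3-fold in all 52 cases, although a smaller pseudocount enlarged those of low genes, as for Col10a1 from 1.26 to 1.51 (0.1) and 1.54 (0.01). Neither pseudocount nor the filter on mean FPKM moved a count or median of the chains by more than 1.5-fold. A higher fold minimum leaves fewer chains by construction. With 1.5-fold, 5 chains were higher in ApoE4 at 7 dpi and 1 in ApoE3 (10 and 3 at 1.3-fold), 1 and 1 at 21 dpi (6 and 4), and 1 was higher at 21 than at 7 dpi in ApoE3 (3) and 4 in ApoE4 (7). With 2-fold these counts were 1 and 0 at 7 dpi, 0 and 1 at 21 dpi, and 0 and 2 over time. Centring on the median of all genes gave, at 21 dpi, 0 chains higher in ApoE4 and 15 in ApoE3, with a median of -0.43 where it was -0.0047 uncentred, and 2 chains higher at 21 dpi in ApoE4 with a median of -0.98 where it was -0.45; the subtracted shift accounts for this. With the chains listed at both time points alone, chosen after seeing the data, 4 were higher in ApoE4 at 7 dpi and 2 in ApoE3 at 21 dpi, since fewer are listed, and the 21 dpi median reversed to 0.032, because the 3 chains this leaves out, Col28a1 (-1.67), Col24a1 (-0.40) and Col6a4 (-0.18), were all below 0. No paired analysis was possible because each group holds 1 value combined from its mice. Samples were reduced to an equal number of reads by the authors, but without counts per gene the precision of low values such as those of Col7a1 and Col28a1 was not computed.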
